A study of Mus musculus with 4 samples.

Results

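Arntl, Per1, Nr1d1 and Dbp, 4 genes of the circadian clock and its direct output, were followed across 4 mouse hearts. They were found by position on mm9 among the 35299 loci of the table, as the locus with a UCSC transcript model and the highest mean in each gene's interval. All belong to 1 group, Sham, with 4 biological replicates: C57BL/6J mice, 12 weeks old, whose hearts were sampled 2 weeks after sham surgery in the border zone of the sham infarct. For replicate 4 the title and treatment give sham, but the description names the border zone without that word. The libraries are headed 3RL, 7LR, 8R and 12RL, names that stand in no label, so they are not tied to replicate numbers. Neither the time of day at which the hearts were taken nor the light schedule is given in the sources used here. With 1 group there is no contrast to test, and levels are described heart by heart.

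For 3 of the 4 genes the interval gave the intended locus. For Nr1d1, the interval as written gave the neighbouring Thra locus, whose mean of 9259 normalised read counts (read counts divided by a size factor per library) was just above the 9040 of the Nr1d1 locus. Names were checked by splice structure, the lengths of internal exons and of introns, which do not depend on coordinates. The structures of Per1, Arntl, Dbp and Nr1d1 in a later annotation (GENCODE M21) each matched 1 locus. Nr1d1 below is the locus with the splice structure of Nr1d1, and Thra is described beside it. The Dbp locus held models of 2 genes, Car11 and Dbp.

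In the clock of mammalian cells, the proteins of Arntl (BMAL1) and of Clock or Npas2 pair and bind E-box sequences. They switch on their own repressors, the Per and Cry genes, and another loop in which Nr1d1 (REV-ERB alpha) represses Arntl and the ROR receptors activate it. Dbp encodes an output transcription factor of the PAR bZIP family that binds D-box sequences. In heart, as in other tissues, transcripts of these genes are known to cycle over the day, with Arntl high when Nr1d1 and Dbp are low and with the Per genes later than Nr1d1.

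Promoters are shown for members whose levels differed in pattern across the hearts. They come from RefSeq (GRCm38.p6), in whose table all 4 members were found, and their positions cannot be set beside the mm9 positions used elsewhere. Each window ran from 250 bases before to 50 bases after a start. The motifs searched on both strands were the E-box CACGTG, the D-box TTANGTAA, the ROR element core AGGTCA and the cyclic AMP response element core TGACGT, and none of the matches in the members overlapped another. Of 32851 windows in the table, 7.15% held the E-box, 2.32% the D-box, 16.3% the ROR core and 7.51% the TGACGT core. The first of 2 Per1 windows held an E-box whose first base was 166 bases before the start, and a ROR core on the opposite strand 137 bases before it. The second Per1 window held TGACGT 132 bases before its start. In 1 of 2 Arntl windows the ROR core began at base 32 after the start. The windows of Nr1d1 and Dbp held none of the 4 motifs, which says only that these letters are not in them.

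The 250 bases before the first Per1 start (chr11:69098699-69098948, plus strand) and before the Nr1d1 start (chr11:98775378-98775627, minus strand) are given because Per1 was low in the hearts where Nr1d1 was high. The stretches of 30 bases around TGACGT at the second Per1 start (chr11:69100008-69100037, plus strand) and around the ROR core of Arntl (chr7:113207530-113207559, plus strand) show those matches. Capitals mark the motifs.
Per1, first start: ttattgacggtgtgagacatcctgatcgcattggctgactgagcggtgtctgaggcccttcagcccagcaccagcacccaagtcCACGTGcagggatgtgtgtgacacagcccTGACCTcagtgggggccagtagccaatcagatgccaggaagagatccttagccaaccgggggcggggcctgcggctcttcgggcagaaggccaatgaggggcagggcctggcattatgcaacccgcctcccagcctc
Nr1d1: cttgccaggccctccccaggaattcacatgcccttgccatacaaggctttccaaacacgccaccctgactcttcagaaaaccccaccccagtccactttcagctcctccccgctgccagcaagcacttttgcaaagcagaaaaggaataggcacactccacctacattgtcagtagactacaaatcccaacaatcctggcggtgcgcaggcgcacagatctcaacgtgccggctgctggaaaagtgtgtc
Per1, second start: gagctcagcggcTGACGTcggtttccctgg
Arntl: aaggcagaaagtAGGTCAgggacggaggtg

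The libraries held 108345923 to 160670654 recovered reads, so counting error was small except at low levels such as that of Arntl. Long transcripts lay below the mean of the 4 libraries in 8R and 3RL and above it in 7LR and 12RL. Across 13251 loci, Spearman's rho between deviation and spliced length ran from -0.460 in 8R to 0.405 in 7LR, so spreads are also given with this trend removed. Of 4 cardiomyocyte markers, the 2 matched by position were abundant, Actc1 (cardiac actin) with 1388903 ± 227778 and Atp2a2 (the calcium pump of the sarcoplasmic reticulum) with 2594632 ± 127312 normalised read counts (SD, n = 4). Markers of other cells were present in every library and highest in 3RL for 2 lists: the sum of the fibroblast collagens Col1a1 and Col3a1 ran from 23448 in 12RL to 65785 in 3RL, and that of the endothelial genes Pecam1 and Cdh5 from 53667 in 12RL to 73032 in 3RL. The leukocyte marker Ptprc ran from 856 in 7LR to 1203 in 12RL. In bulk tissue, fewer cells of a type and less RNA per cell cannot be told apart.

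Arntl, the activator among the members, was the lowest of the 4 and varied most between hearts. Its locus on chr7 from 120350979 to 120457636 (plus strand) held 6 UCSC models of up to 20 exons and no assembled model. The normalised read count was 288 in 3RL, 175 in 8R, 166 in 12RL and 96.8 in 7LR (mean 181 ± 79.0, SD, n = 4). Thus 3RL was high, 7LR was low, and 8R and 12RL lay together between them. These values rest on 241 reads in 3RL, 154 in 8R, 105 in 12RL and 85 in 7LR. Their 95% exact Poisson intervals, which cover counting error only, were 253 to 326 in 3RL and 77.3 to 120 in 7LR, and overlapped neither each other nor those of the middle libraries. The intervals of 8R (149 to 205) and 12RL (135 to 200.4) overlapped.

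The highest library of Arntl exceeded the lowest 2.97-fold, or by 1.56 on the scale of log2(count + 1). A difference of 2-fold or more between the highest and the lowest library was seen in 6.50% of the 14424 loci with a mean of 50 or more, which all 4 members passed. Of the 500 loci nearest to Arntl in mean, 5.0% had a larger CV than its 43.6%. Arntl stayed past 2-fold with the length trend removed. The log2 range was 0.85 without 3RL and 0.79 without 7LR, below 2-fold in both cases. The order of its libraries was shared by 5.14% of all loci, and 8R and 12RL changed places under scaling to equal totals of all loci. In 3RL the fibroblast and endothelial sums were also the highest, but in 12RL, where both were lowest, Arntl was not lowest. In 7LR, where Arntl was lowest, the leukocyte marker Ptprc (856) and the summed cardiomyocyte markers (3745481) were also lowest. The cardiomyocyte markers differed: Actc1 was lowest in 7LR (1177408) and Atp2a2 in 3RL (2425212). Under both scalings to equal totals, Actc1 was lowest in 12RL. The part of these markers in the level of Arntl was not tested.

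Per1, a repressor of the activating pair that also responds early to hormones and cyclic AMP, separated the hearts into pairs. The locus on chr11 from 68908756 to 68924974 (plus strand) held 3 UCSC models of 18 or 23 exons and 3 assembled models that ran on to a later end than the UCSC models, whose last base was 68923459. Per1 had 18176 normalised read counts in 8R and 17440 in 7LR, but 11196 in 12RL and 10079 in 3RL (mean 14223 ± 4176, SD, n = 4). The low pair and the high pair were each close, with 12RL 1.11-fold above 3RL and 8R 1.04-fold above 7LR. The order of 7LR and 8R turned under both scalings to equal totals, the one with all loci giving 18362 in 7LR and 17005 in 8R. The gap between the pairs, 1.56-fold from 12RL to 7LR, was wider than the distance within either.

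From 3RL to 8R the count of Per1 differed 1.80-fold, a log2 range of 0.85 that was also 0.85 with the length trend removed. A difference of 1.5-fold or more was seen in 20.6% of loci. At the level of Per1 such spread was rare: of the 500 loci nearest in mean, 0.2% had a larger CV than its 29.4%. Of 3 immediate early genes used as markers of recent stimulation, 1 was matched by position. This was Atf3, a stress-response transcription factor gene, which had 395 normalised read counts in 3RL, 807 in 12RL, 1195 in 7LR and 8258 in 8R. This was the order of Per1, shared by 4.46% of all loci, but under both scalings to equal totals Per1 was highest in 7LR and Atf3 in 8R. The range of Atf3 was 20.9-fold, and in 7LR Per1 was nearly as high as in 8R while Atf3 was not. By splice structure, Nr4a1 and Fos were also highest in 8R, with 24356 and 753. Nr4a1 had 6521 in 7LR, 1135 in 3RL and 1116 in 12RL, so 7LR and 8R lay above 3RL and 12RL, as for Per1. Fos had 183 in 12RL, 175 in 7LR and 105 in 3RL. For Fos, 12RL (116 reads) and 7LR (154 reads) were thus close. Under scaling to equal totals of all loci, Fos was higher in 7LR (185) than in 12RL (183). The part of these genes in the level of Per1 was not tested.

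Nr1d1, the nuclear receptor that represses Arntl, was high where Per1 was low. Its locus on chr11 from 98629249 to 98636556 (minus strand) held 1 UCSC model of 8 exons. Its normalised read count was 13096 in 3RL, 9657 in 12RL, 7279 in 7LR and 6128 in 8R (mean 9040 ± 3078, SD, n = 4). The order was the reverse of that of Per1, except under both scalings to equal totals, where Per1 was higher in 7LR than in 8R. The hearts low in Per1, 3RL and 12RL, were high in Nr1d1 under every scaling run. The 95% counting intervals of the 4 libraries did not overlap. At 5390 to 10971 reads per library these intervals were narrow, and the share of other loci without overlap was not measured. The highest library exceeded the lowest 2.14-fold (log2 range 1.10, and 1.13 with the length trend removed). Of the 500 loci nearest in mean, 1.4% had a larger CV than its 34.0%. The log2 range was 0.66 without 3RL and 0.85 without 8R, both below 2-fold. The fibroblast and endothelial sums were highest in 3RL too and lowest in 12RL, and Nr1d1 was lowest in 8R. Their part in the level of Nr1d1 was not tested.

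Reads at both ends of Nr1d1 could belong to neighbours. Thra, the thyroid hormone receptor alpha gene, runs towards Nr1d1 on the other strand, and 321 bases of its exonic sequence (12.2% of that of Nr1d1) overlapped the last exons. Thra had 9737 normalised read counts in 3RL, 9643 in 12RL, 9178 in 7LR and 8480 in 8R. The order of the libraries was that of Nr1d1, which 3.22% of all loci shared, but the range was only 1.15-fold and the order changed with median-of-ratios scaling and with equal totals of all loci. At the start of Nr1d1, an assembled locus without a UCSC model, from 98636457 to 98645980 on the plus strand, shared 100 exonic bases with it. This locus, singled out after its values were seen, had 165 normalised read counts in 3RL, 125 in 12RL, 117 in 7LR and 73.9 in 8R, again in the order of Nr1d1 and with a range of 2.23-fold. Whether the libraries kept strand is not given in the sources used here, so reads in the shared stretches cannot be told apart.

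**Figure D1:**
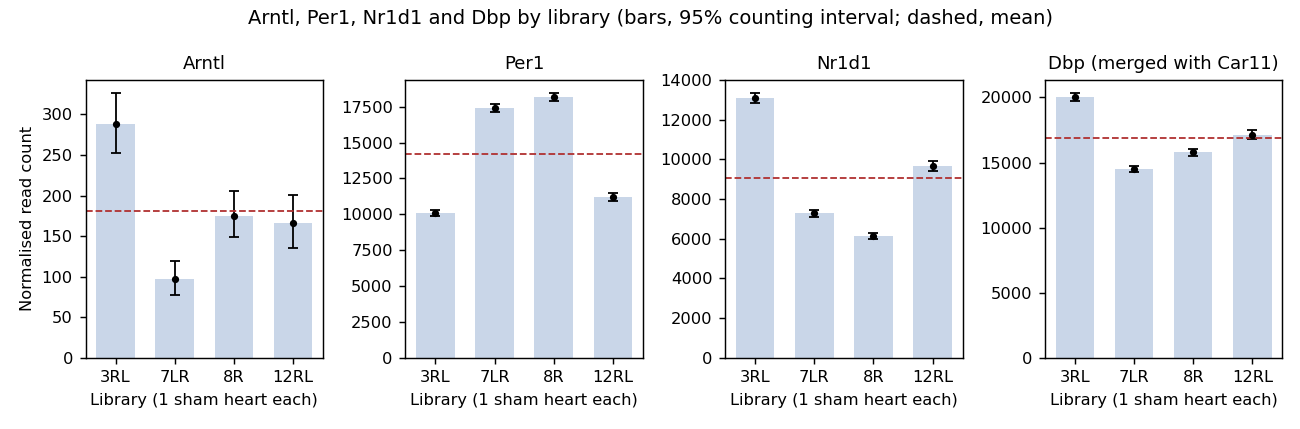
Normalised read count (vertical axis, from 0) of Arntl, Per1, Nr1d1 and the Dbp locus in each of the 4 libraries (horizontal axis). Bars are single libraries, whiskers are 95% Poisson intervals of the reads and the dashed line is the mean of the 4; Per1 is low in 3RL and 12RL, where Nr1d1 is high.

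Dbp, the output transcription factor, was the most abundant of the 4 per exonic length and the least variable, but its count includes another gene. The locus on chr7 from 52955337 to 52965730 (plus strand) held the UCSC model of Car11, a carbonic anhydrase-related gene, with 9 exons and 1440 spliced bases. It also held that of Dbp, with 4 exons and 1641 spliced bases. Between them stood an assembled model of 12 exons and 3860 bases that began at the start of Car11 and ran past the end of the Dbp model. Its ninth exon bridged the last exon of Car11 and the first of Dbp. Counts per locus therefore sum both genes, and the share of each was not measured.

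The Dbp locus had 20036 normalised read counts in 3RL, 17142 in 12RL, 15771 in 8R and 14511 in 7LR (mean 16865 ± 2371, SD, n = 4). The values thus stepped down from 3RL without a gap as wide as those of Per1 or Nr1d1. The difference of 1.38-fold (log2 range 0.47) did not reach the 1.5-fold that 20.6% of loci passed. With the length trend removed, 8R and not 7LR was the lowest library and the range was 0.44, while 3RL exceeded 7LR by 0.34. Of the 500 loci nearest in mean, 15.6% had a larger CV than its 14.1%. As for Arntl and Nr1d1, 3RL was the highest library and, as for Arntl, 7LR was the lowest, though 8R was lowest for Dbp under scaling to equal totals of all loci. Of all loci, 23.9% were highest in 3RL and 8.03% were also lowest in 7LR. The full order was shared by 2.88% of loci. As for Nr1d1, the fibroblast and endothelial sums were highest in 3RL and lowest in 12RL, and their part was not tested. Sphk2, a sphingosine kinase gene on the other strand, shared 100 exonic bases with the end of the locus (2.59% of its exonic sequence) and had 2621 ± 242 normalised read counts (SD, n = 4).

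**Figure D2:**
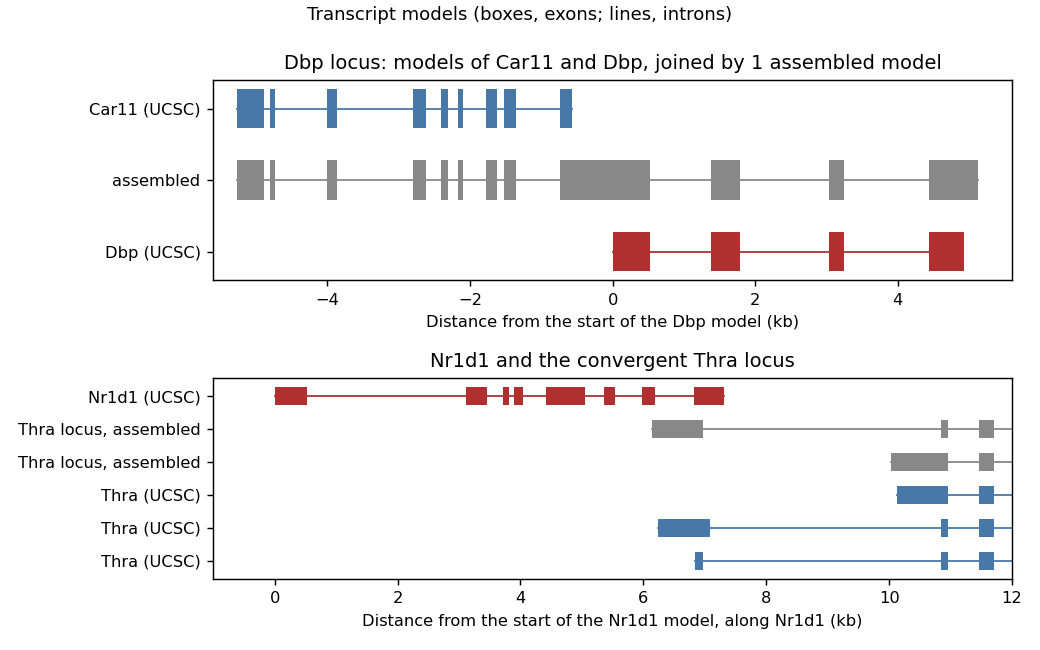
Exons (boxes) and introns (lines) of the transcript models, by distance in kb from the start of the Dbp model (upper panel) and of the Nr1d1 model (lower panel). An assembled model (grey) joins Car11 (blue) and Dbp (red), and the last exons of Thra models overlap the end of Nr1d1.

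Levels of different genes were compared per kb of exonic sequence, the union of all models of a locus. On this scale the Dbp locus had 4369 ± 614 normalised counts per kb, Nr1d1 3441 ± 1171, Per1 2002 ± 588 and Arntl 62.0 ± 27.0 (SD, n = 4). Dbp and Nr1d1 differed by less than the SD of Nr1d1, while Per1 lay below Nr1d1, and Arntl below Per1, by more than either SD. Among 18748 loci with a UCSC model and any reads, 94.5% were below the Dbp locus, 92.9% below Nr1d1, 87.6% below Per1 and 38.7% below Arntl. The partners of Arntl lay apart from each other, with 493 ± 54.4 for Clock and 76.0 ± 23.7 for Npas2. Arntl was thus the lowest of the 20 clock genes measured, next to Npas2, and these neighbours differed by less than their spread.

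Ratios of genes within a library do not depend on the size factor. Per1 over Nr1d1 was 0.770 in 3RL, 1.16 in 12RL, 2.40 in 7LR and 2.97 in 8R, a log2 range of 1.95. As Nr1d1 ran in the reverse order of Per1, this ratio could only rise in the order of Per1 and adds no separate observation. In it, 3RL and 12RL lay apart from 7LR and 8R. Per1 over Arntl ran from 35.0 in 3RL to 180.2 in 7LR, a log2 range of 2.35 that was 1.41 without 3RL and 1.56 without 7LR. Dbp over Arntl was 69.6 in 3RL, 90.1 in 8R, 103.5 in 12RL and 149.9 in 7LR, a log2 range of 1.10 that was 0.73 without 3RL and 0.57 without 7LR. Dbp over Nr1d1 had a log2 range of 0.75, which was 0.38 without 8R. Each pair was taken in 1 direction, and the inverse ratio would turn lowest into highest. Nr1d1 over Arntl was not lowest in 3RL: it was 45.5 there, 35.0 in 8R, 58.3 in 12RL and 75.2 in 7LR. Its log2 range of 1.10 was 0.71 without 8R. The ratios Per1 over Nr1d1, Per1 over Dbp, Per1 over Arntl, Dbp over Arntl and Dbp over Nr1d1 were each lowest in 3RL. Per1 was lowest in 3RL and the other members were highest there, so the ratios of Per1 to them could only be lowest in 3RL. All these ratios share genes and are not separate observations.

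**Figure D3:**
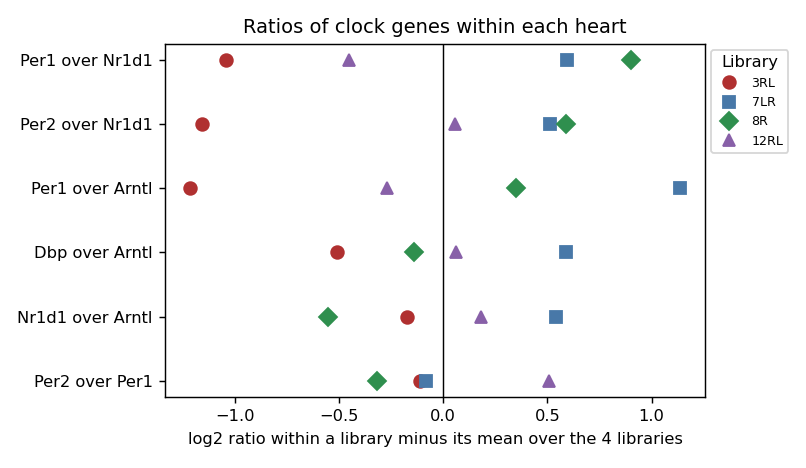
Log2 ratio of gene pairs within each library minus its mean over the 4 libraries (horizontal axis), 1 row per pair and 1 symbol per library. For Per1 over Nr1d1 and Per1 over Arntl, 3RL and 12RL lie to the left and 7LR and 8R to the right.

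Other genes of the clock were taken from a list of 18, of which 16 were matched by position. Splice structure gave the same name for 15 of them, and Nfil3 has too few exons for that check. Only 1 of the 16, Npas2, reached 2-fold between libraries (6.50% of all loci did), and 5 reached 1.5-fold (20.6% of all loci). Their median log2 range was 0.45, beside 0.34 over all 14424 loci and 0.97 for the 4 members. The count past 2-fold was 0 without 7LR or without 12RL.

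Of the activating partners, Clock varied little, from 4944 normalised read counts in 8R to 6386 in 12RL, a log2 range of 0.37. With the length trend removed, 12RL exceeded 8R by 0.17, and the range was 0.28, with 3RL highest and 7LR lowest. Npas2, which can take the place of Clock, had 465 in 7LR, 329 in 3RL, 319 in 8R and 213 in 12RL. Its range was 2.18-fold, and it was highest in the library where Arntl was lowest. Without 7LR the log2 range was 0.63 and without 12RL 0.54, against 1.12 with all libraries.

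Among the 5 repressors, Per2 and Cry1 reached 1.5-fold. Per2 had 8698 normalised read counts in 7LR, 8402 in 12RL and 7707 in 8R, but 4922 in 3RL. Unlike Per1, it was high in 12RL, and its log2 range of 0.82 was 0.17 without 3RL. Cry1 had 2613 in 12RL, 2308 in 8R, 2048 in 7LR and 1466 in 3RL, with a log2 range of 0.83 that was 0.35 without 3RL. For both genes a single library, 3RL, thus lay below the other 3. Per3 (1.44-fold), Cry2 (1.22-fold) and Bhlhe40 (1.38-fold) were below 1.5-fold.

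In the loop of nuclear receptors, the paralogue of Nr1d1 did not follow it. Nr1d2 had 25538 normalised read counts in 7LR, 23958 in 12RL, 22236 in 8R and 19395 in 3RL, where Nr1d1 was highest. Rora (1.52-fold), an activator of Arntl, was likewise lowest in 3RL, though in 8R under both scalings to equal totals. Among the bZIP factors, Tef and Hlf, the relatives of Dbp, were lowest in 3RL while the Dbp locus was highest there, but under both scalings to equal totals Tef and Hlf were lowest in 8R. Tef had 44228 in 7LR, 44226 in 12RL, 37848 in 8R and 35717 in 3RL. Nfil3, which competes with them for D-boxes, had 1184 in 3RL, 1259.5 in 7LR and 1794 in 12RL, with 2353 in 8R, a 1.99-fold difference that was 1.52-fold without 8R. The casein kinase genes Csnk1d and Csnk1e, whose products phosphorylate PER proteins, varied by 1.13-fold and 1.12-fold.

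Counted over the list, 11 of the 16 genes were lowest in 3RL, beside 21.7% of all loci, and 1, Bhlhe40, was highest there, beside 23.9%. The 11 rests partly on the scaling: it was 7 when libraries were scaled to equal totals, with or without mitochondrial loci. Removing the length trend, or scaling by TMM or by median ratios, left it at 11. These genes are parts of 1 network and not independent. The members divided differently, with Arntl, Nr1d1 and the Dbp locus highest in 3RL and Per1 lowest. Ciart and Bhlhe41 had no matching locus by position, and by splice structure, which was added after the data had been seen, both were above their mean in 3RL.

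**Figure D4:**
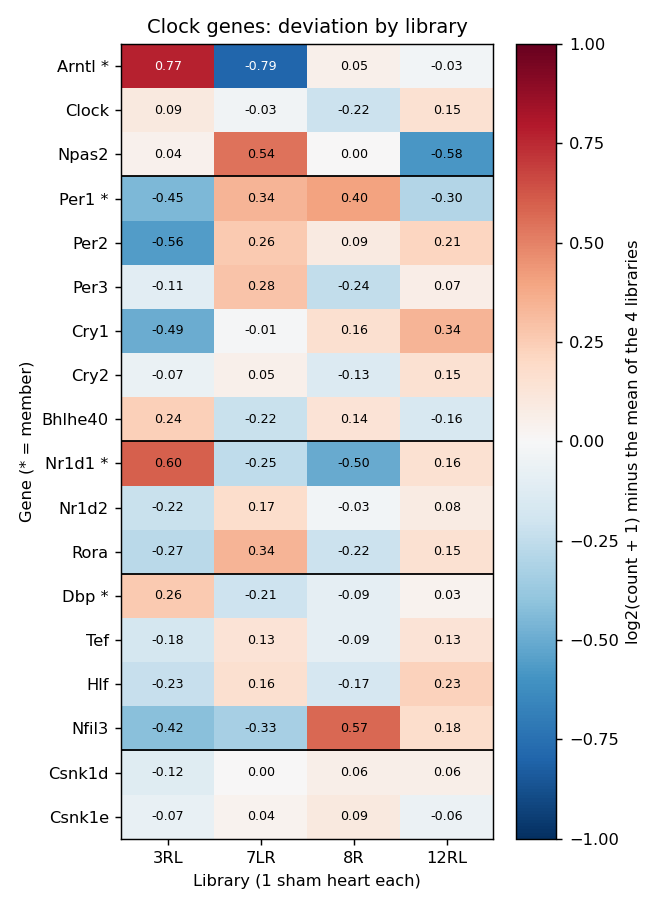
Deviation of log2(count + 1) from the mean of the 4 libraries (colour and printed values) for the 4 members, marked with an asterisk, and other clock genes (rows) in each library (columns). Column 3RL holds the highest values of Arntl (0.77) and Nr1d1 (0.60) and low values of Per2 (-0.56), Cry1 (-0.49) and Per1 (-0.45).

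**Figure D5:**
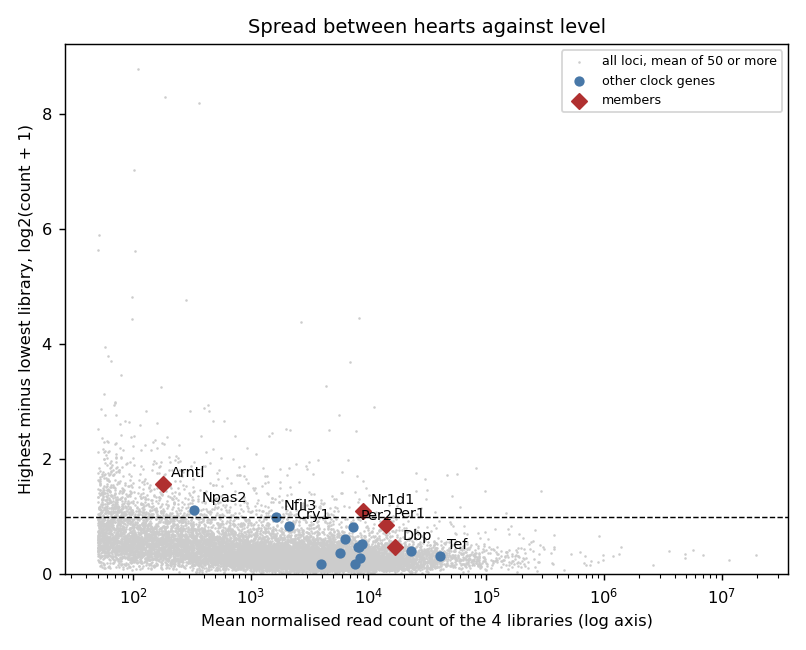
Highest minus lowest library on the scale of log2(count + 1) (vertical axis) against the mean normalised read count (horizontal log axis) for 14424 loci (grey), other clock genes (blue) and the 4 members (red). The dashed line marks 2-fold, which Arntl, Nr1d1 and Npas2 pass.

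The loci whose deviations were most like those of each member were found by the root mean square difference over the 4 libraries, among 13251 loci with a UCSC model and a mean of 50 or more. Over only 4 libraries, this likeness is a description. Nearest to Nr1d1 were Fam102a (0.03 on the log2 scale), Gli1, a transcription factor of hedgehog signalling (0.04), and Plk2, a polo-like kinase (0.05). Plk2 had 5721 normalised read counts in 3RL, 3945 in 12RL, 3260 in 7LR and 2585 in 8R. Nearest to Per1 was a low locus on chr2 from 74543546 to 74545364 (0.04), followed by Rgs2, a regulator of G protein signalling (0.05), and a locus on chr15 from 101123643 to 101128321 (0.06). Rgs2 had 3323 in 3RL, 3380 in 12RL, 5537 in 7LR and 5924 in 8R, the same pairs of hearts as Per1. As Rgs2 was found by its likeness to Per1, this pairing adds no separate observation. Nearest to the Dbp locus were Gja5, a connexin of the conduction system and atria (0.02), Gm15408 (0.02) and Shf (0.02).

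Arntl had no such close match, but it also had the widest range of the members (1.56) and the fewest reads, 85 in 7LR. The part of counting error in its differences from other loci was not tested. The loci nearest to Arntl were Tmprss13, a membrane serine protease (0.11), Susd3 (0.16) and Clec7a, a receptor of myeloid cells (0.17). Clec7a had 382 normalised read counts in 3RL, 255 in 12RL, 196 in 8R and 134 in 7LR. Among the members themselves, the smallest root mean square difference was 0.27, between Dbp and Nr1d1, and the largest was 0.86, between Per1 and Arntl. Of the loci compared, 79.3% were closer to the Dbp locus than Nr1d1 was, and 3.79% were closer to Nr1d1 than the Dbp locus was. Per2 and Csnk1e each lay at 0.31 from Per1, and 8.76% of loci were closer to Per1 than Per2 was.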

How the data were processed

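Long RNA of 4 sham-operated hearts was sequenced as poly(A)-selected libraries, per the labels' protocols. The submitters' processing notes name HTSeq 0.5.4p2, TopHat2 2.0.5, DESeq and Cufflinks 2.0.2, with mm9 as build. Neither counting mode nor strandedness is stated there. The authors deposited a signal table, read counts per locus divided by 1 size factor per library, and transcript models. All values (100% within 0.001) were whole multiples of 1 step per library, so whole reads were recovered; with 1 group no count test could be run on them. Replicate numbers could not be tied to libraries.

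The members and lists were chosen with earlier results of these data known. Members were taken by the interval rule, except Nr1d1. Other genes needed a reciprocal overlap of 70% with an interval of known mm9 position, and names were checked against GENCODE M21 by splice structure (3 or more exons). The 4 members, Clock, Npas2, Per2, Cry1, Tef, list genes past 2-fold and the 3 loci most like each member were to be named; others were named after their values were seen. Counts cover the whole list, but the values of some of its genes are not reported here. Ranges used log2(count + 1) and a minimum mean of 50. The length trend was the running median over 501 loci ordered by the longest spliced UCSC model. Steps were tested on simulated data. Tools were Python 3.11.15, numpy 2.4.6, pandas 2.3.3, scipy 1.17.1 and edgeR 4.0.16 (TMM) in R 4.3.3.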

Additional observations from a re-analysis of the deposited data

How the results depend on the processing

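Under each pseudocount, each scaling and the length correction that were run, Arntl, Nr1d1 and the Dbp to Arntl ratio stayed past 2-fold and Per1 and Dbp stayed under it. Leaving out 1 library gave log2 ranges from 0.79 to 1.56 for Arntl, 0.66 to 1.10 for Nr1d1, 0.70 to 0.85 for Per1 and 0.24 to 0.47 for Dbp, and from 0.57 to 1.10 for Dbp minus Arntl. The Arntl range fell below 2-fold without 3RL or 7LR and the Nr1d1 range without 3RL or 8R, as fewer libraries can only narrow a range. The locus that the Nr1d1 interval gives as written, Thra, had 0.20. The count of 1 list gene past 2-fold was 0 to 1 when a library was left out and 5 at 1.5-fold. The 11 list genes lowest in 3RL were 7 with either scaling to equal totals, where the cause was not tested, and between 11 and 13 on leaving out 7LR, 8R or 12RL. By splice structure 10 of 17 were lowest there. The 1 highest in 3RL was 1 to 2 when a library was left out, 2 with the length trend removed and 2 by splice structure. With a minimum mean of 10, 1 of 3 nearest loci remained for Per1 and for Arntl, and 2 for Dbp and Nr1d1. The alternatives for the 3RL counts, by splice structure, for the rule as written, for library orders under other scalings and for ratios other than Dbp to Arntl were added after seeing the data. No paired analysis was possible because the 4 libraries form a single group and carry no replicate numbers. Depth limits Arntl, with 85 reads in 7LR, and Npas2, with 135 reads in 12RL.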
